A study of Saccharomyces cerevisiae with 24 samples.

Results

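The 10 histone genes of budding yeast were followed across a ribosome profiling series, in which mRNA fragments protected by translating ribosomes (footprints) were sequenced. They were taken by locus tag with no filter on their values, though earlier results of these data were known. The genes were HTA1 (YDR225W) and HTA2 (YBL003C) for H2A, HTB1 (YDR224C) and HTB2 (YBL002W) for H2B, HHT1 (YBR010W) and HHT2 (YNL031C) for H3, HHF1 (YBR009C) and HHF2 (YNL030W) for H4, HTZ1 (YOL012C) for the variant H2A.Z, and HHO1 (YPL127C) for the linker histone H1. The 10 genes fill 6 of the 5564 rows of the expression table, because the 2 copies of each core histone share 1 row. The level is in RPKM, footprint reads scaled to gene length and library size, and for a shared row it is the mean per copy, so which copy the footprints came from cannot be told.

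All cells were of the haploid strain BY4741, and 23 libraries of 21 conditions were used. Unstressed cells grew in rich medium (YPD) at 30°C. Oxidative stress was 0.2 mM hydrogen peroxide for 30 min in the same medium. Both were harvested without drug and at 6 doses of cycloheximide, an elongation inhibitor, given at the end of the stress. The dose x1 was 100 µg/ml and the others were x1/64, x1/16, x1/4, x8 and x100, with 2 independent libraries per stress at x100 and 1 everywhere else. For heat shock, cells were filtered and moved to YPD at 42°C for 20 min, and were harvested without drug and at x1. For starvation, cells grown in complete synthetic medium (SD) were filtered and moved for 20 min to SD with no amino acids or to SD with His, Met and Leu added back, and were set against complete SD. The starvation medium held nitrogen base and glucose, and BY4741 cannot make histidine, leucine, methionine or uracil itself. In 2 further unstressed libraries an initiation inhibitor, edeine or aurintricarboxylic acid, was in the lysis buffer, and the latter lysate was digested after the gradient, not before it. The lysis buffer itself held 100 µg/ml cycloheximide, so drug-free means that none was given to the cells. Libraries were made with 1 of 2 primer sets, 12 with set 1 and 11 with set 2. Both heat shock libraries had set 2 while both unstressed libraries at the same doses had set 1. At x1 and x8 the oxidative library had set 2 and the unstressed one set 1, so stress and primers cannot be told apart at these doses. At every other dose the oxidative and unstressed libraries had the same set.

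Core histones form the nucleosome, a spool of H2A–H2B dimers on an H3–H4 tetramer around which DNA is wrapped. In yeast the core genes lie in divergent pairs, H2A beside H2B and H3 beside H4, and each pair is transcribed mainly in S phase from a shared intergenic region. Their mRNAs, unlike those of animal histones made in S phase, carry a poly(A) tail. H2A.Z replaces H2A near promoters and is put there by the SWR1 complex, and Hho1 binds linker DNA. In the reference table (assembly R64) each H2A gene was the neighbour of an H2B gene and each H3 gene of an H4 gene.

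The depth recovered from the RPKM values was 1.92 to 27.8 M reads per library (M, mega), with a median of 6.92 M. Histone rows held 38 to 27551 reads in a library, and the 4 core rows never fewer than 282. LEU2, URA3 and MET17, which BY4741 lacks, were listed at 0 in all 23 libraries. Of 5 genes of MATa cells, STE2 and BAR1 were read in all 23 libraries, ASG7 was listed at 0 in 1, and MFA1 and MFA2, very short genes, were listed at 0 in all 23. STE2 and BAR1 were lower under heat shock, at −3.40 and −3.36 on the log2 scale. Of the alpha-cell genes STE3 reached 15.1 RPKM and MF(ALPHA)1 1.31 RPKM at most. Of 10 peroxide-responsive genes, 10 were higher under oxidative stress, and of 10 heat-responsive genes, 10 were higher under heat shock. Over all rows tested 63% and 26.7% were called higher in these comparisons. The lists were chosen with earlier results of these data known, so these counts are not an independent check. The responses overlapped. Of 9 tested heat-responsive genes 8 were higher under oxidative stress too, with a list median of 4.93 on the log2 scale. Of 10 peroxide-responsive genes 8 were higher under heat shock, with a list median of 1.97. There was no RNA-seq for these libraries, so a lower mRNA level, less translation per mRNA and fewer cells in S phase cannot be told apart.

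**Figure D1:**
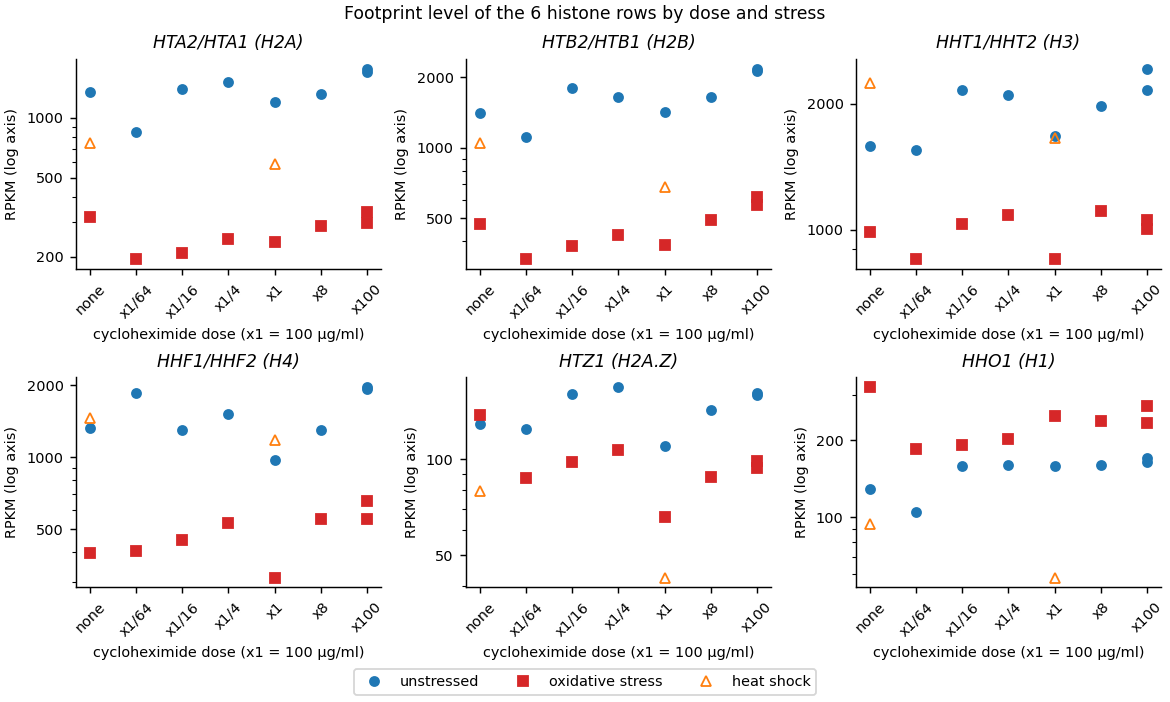
RPKM (log axis) of the 6 histone rows against the cycloheximide dose, 1 point per library, in unstressed cells (blue circles), oxidative stress (red squares) and heat shock (orange triangles). Red squares lie below all blue circles in the 4 core rows, and above them in HHO1. In HTZ1 the drug-free red square lies among the blue circles and the others lie below them.

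Oxidative stress lowered the footprints of all 4 core histones, and it lowered H2A most and H3 least. HTA1 and HTA2 together ranged from 847 to 1773 RPKM in the 8 unstressed libraries, with a median of 1376, and from 194 to 336 RPKM in the 8 oxidative libraries, with a median of 266. The groups were far apart, and at each of the 7 dose levels, no drug among them, the oxidative level was the lower one, by 4.25 to 6.67-fold. The smallest of these, 4.25-fold, was the drug-free one. Over the 16 libraries, with the dose as a block, H2A was 2.38 ± 0.09 lower on the log2 scale (SE, adjusted p = 1.342e-10, limma), or 5.20-fold. Of the 4352 rows tested it ranked 182 from the lowest difference. Here and below a log2 difference is on log2(RPKM + 1), rows with a mean under 10 RPKM were not tested, and p was adjusted over all rows by the Benjamini-Hochberg method against a threshold of 0.05.

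The dimer partner H2B followed. HTB1 and HTB2 ranged from 1109.7 to 2172 RPKM (median 1645) in unstressed cells and from 335 to 615 RPKM (median 449) under oxidative stress. The groups again did not overlap, and the fitted difference was 3.61-fold (log2 −1.85 ± 0.08, SE, adjusted p = 3.871e-10, limma). Without drug H2B was 2.96-fold lower, the smallest of its differences by dose.

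H4, from HHF1 and HHF2, ranged from 974 to 1969.7 RPKM (median 1421) in unstressed and from 313 to 659 RPKM (median 493) in oxidative libraries. It was 3.15-fold lower (log2 −1.65 ± 0.10, SE, adjusted p = 5.741e-09, limma). H3, from HHT1 and HHT2, ranged from 1553 to 2424 RPKM (median 2038) in unstressed and from 849 to 1110.2 RPKM (median 1017) in oxidative libraries. It was 1.95-fold lower (log2 −0.96 ± 0.07, SE, adjusted p = 7.707e-08, limma). H3 was the smallest of the core changes, and its groups still did not overlap. Without drug H3 was 1.61-fold lower, the smallest of its differences by dose, and H4 was 3.35-fold lower.

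The variant was lower like the core rows, by less than any of them, and the linker histone was not. HTZ1 ranged from 110.3 to 169 RPKM (median 151) in unstressed and from 66.1 to 137 RPKM (median 96.0) in oxidative libraries. Its groups overlapped: it was lower at 6 of 7 doses, but without drug it was 137 RPKM under stress and 129 RPKM without. The fit gave −0.58 ± 0.10 (SE, adjusted p = 8.55e-05, limma), and within primer set 1 alone, a fit added after seeing the data, −0.42 with an adjusted p of 0.093. HHO1 was the one histone that was higher. It ranged from 105 to 170 RPKM (median 159) in unstressed and from 185 to 324 RPKM (median 236) in oxidative libraries, with no overlap. The highest oxidative value was the drug-free one, 2.52-fold (95% counting interval 2.38 to 2.66) above the drug-free unstressed library. The fit gave +0.64 ± 0.11 (SE, adjusted p = 9.995e-05, limma).

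These differences are read against all rows. The median row was 0.53 higher on the log2 scale under oxidative stress, 63% of the 4352 rows tested were called higher and 22.8% lower. Of the 6 histone rows, 5 were called lower and 1 higher. In 12.5% of rows all oxidative libraries lay below all unstressed ones and in 38.2% above, and among the histones this was so for the 4 core rows and for HHO1 respectively. With each library centred on the median of its rows, the 5 lower calls stayed, at −2.90 for H2A, −2.38 for H2B, −2.18 for H4, −1.49 for H3 and −1.11 for HTZ1. The call for HHO1 was lost: relative to the median row it was +0.11 (adjusted p = 0.25, limma). The shares of all rows called higher and lower relative to the median row are not given here or below.

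The x100 libraries are the only independent replicates, 2 per stress. Without stress H2A was 1734 ± 54.6 RPKM and H2B 2152 ± 28.9 RPKM, and under oxidative stress 316 ± 28.9 and 594 ± 29.7 RPKM (SD, n = 2 each). H3 was 2288 ± 193 against 1029 ± 34.7 RPKM, and H4 was 1947 ± 31.6 against 604 ± 76.6 RPKM (SD, n = 2 each). HTZ1 was 160.1 ± 1.61 against 96.2 ± 3.21 RPKM, and HHO1 168 ± 4.03 against 252 ± 27.1 RPKM (SD, n = 2 each). The gap exceeded the spread between replicates in all 6 rows.

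In limma on these 4 libraries 5 rows were called lower and 1 higher, where 19.7% of the 4101 rows tested were called lower and 55.3% higher. H2A, at −2.46 ± 0.12 (SE, adjusted p = 4.373e-05), ranked 30 from the lowest difference. H2B was at −1.86, H4 at −1.69, H3 at −1.15 and HTZ1 at −0.73, with adjusted p of 6.642e-05 to 0.001394. HHO1 was at +0.58 (adjusted p = 0.006423), and at +0.08 (adjusted p = 0.591) relative to the median row. Without unstressed replicate 2 its adjusted p was 0.052.

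**Figure D2:**
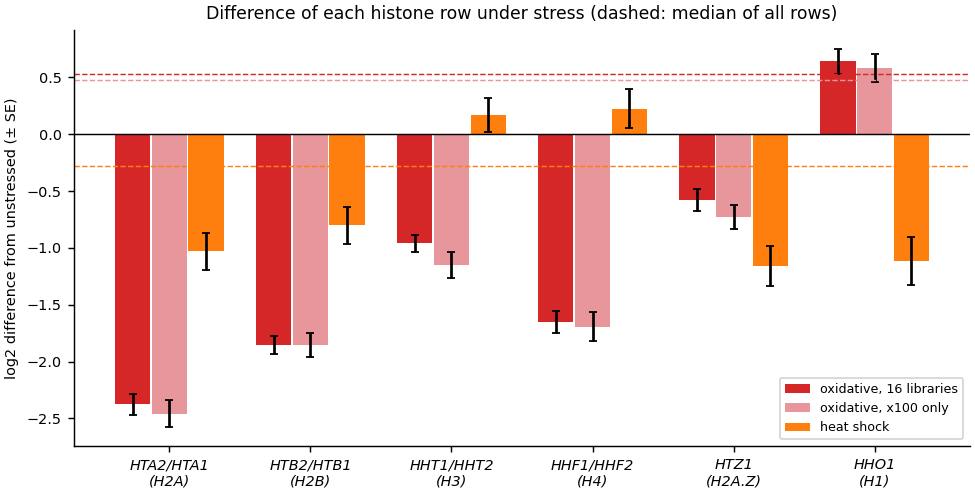
Log2 difference of each histone row from unstressed cells (bars, with SE) under oxidative stress over 16 libraries, at x100 only, and under heat shock, with the median of all rows tested as dashed lines in the same colours. H2A, H2B and HTZ1 lie below 0 in all 3 comparisons, H3 and H4 under oxidative stress only, and HHO1 changes side between the 2 stresses.

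Heat shock lowered H2A and H2B, HTZ1 and HHO1, and left H3 and H4 without a call. H2A was 748 RPKM without drug and 584 RPKM at x1, against 1352 and 1204 RPKM in the matched unstressed libraries. H2B was 1049 and 682 RPKM, against 1400.4 and 1421 RPKM. Both heat shock libraries were below each of the 8 unstressed ones in both rows, as they were in 38.5% of the 4317 rows tested. The move to new medium came with the heat, and the effects of the 2 cannot be told apart.

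H3 was 2241 RPKM without drug and 1651 RPKM at x1 in heat-shocked cells, against 1587 and 1677 RPKM. The ratio was 1.41 (95% counting interval 1.37 to 1.46) without drug and 0.984 (0.944 to 1.03) at x1. H4 was 1459 and 1182 RPKM, against 1327 and 974 RPKM. Both rows stayed within the range of the unstressed libraries.

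HTZ1 was 79.5 and 42.4 RPKM under heat shock, from 85 and 38 reads, the latter the fewest of any histone row in a library. The matched unstressed levels were 129 and 110.3 RPKM. HHO1 was 93.9 and 57.9 RPKM, against 129 and 158 RPKM. Neither row overlapped the unstressed range, which is read against the same 38.5%.

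In limma over 18 libraries heat shock gave −1.16 ± 0.18 for HTZ1, −1.12 ± 0.21 for HHO1, −1.03 ± 0.16 for H2A and −0.80 ± 0.16 for H2B (SE, adjusted p of 4.66e-05 to 0.000524). H3 was at +0.17 ± 0.15 and H4 at +0.23 ± 0.18 (SE, adjusted p = 0.313 and 0.263). So 4 histone rows were called lower and 0 higher, where 43.2% of the 4317 rows tested were called lower and 26.7% higher, and the median row was at −0.28. Relative to the median row H3 and H4 were called higher, at +0.47 (adjusted p = 0.004052) and +0.52 (adjusted p = 0.048), and the 4 lower calls stayed. The shares of all rows called on that scale are not given, so these calls have no background beside them. With the primer set as a term the values were −1.16 for H2A, −0.93 for H2B, −1.07 for HTZ1, −1.20 for HHO1, +0.05 for H3 and +0.02 for H4, with the same calls. No heat shock library shared a set with its matched unstressed one, so that term rests on the oxidative libraries at x1 and x8. It takes the oxidative difference as equal at all doses, so heat and primers still cannot be told apart. In a fit of the 4 matched libraries alone the call for H2B was lost (−0.74, adjusted p = 0.124).

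The 2 stress effects were compared in the same fit. All 4 core histones were higher under heat shock than under oxidative stress, H4 by 1.88 ± 0.18, H2A by 1.35 ± 0.16, H3 by 1.13 ± 0.15 and H2B by 1.05 ± 0.16 on the log2 scale (SE, adjusted p of 1.796e-06 to 7.155e-05, limma). Only 5% of rows were called higher in this comparison and 74.1% lower, and the median row was at −0.88. HHO1 was lower under heat shock by 1.76 ± 0.21 (SE, adjusted p = 1.237e-05, limma). HTZ1 was at −0.57 ± 0.18 (SE, adjusted p = 0.008749, limma), but relative to the median row at +0.25 (adjusted p = 0.159), so its direction depended on the scaling.

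The ratios between the histone rows were compared within each library. H3 over H2A was 1.17 to 1.83 in the 8 unstressed libraries, with a median of 1.38, and 2.99 to 4.93 in the 8 oxidative ones, with a median of 3.73. In the heat shock libraries it was 2.995 and 2.83. The unstressed range did not overlap with either. A ratio of 2 rows of 1 library does not depend on how that library was scaled. H2B over H2A, the dimer partners, was 1.04 to 1.31 in unstressed and 1.49 to 2.08 in oxidative libraries, a smaller shift but again with no overlap. Under heat shock it was 1.40 and 1.17, the latter within the unstressed range. H3 over H4 was 0.838 to 1.72 without stress and 1.60 to 2.73 with peroxide, which overlap, and at 42°C it was 1.54 and 1.40, within the unstressed range.

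H4 over H2A was 1.25 to 2.23 in oxidative libraries, and 1.95 and 2.02 in heat-shocked cells. Without stress it was 0.809 to 1.14 in 7 libraries and 2.19 at x1/64. That library, of 2.03 M reads, also held the lowest unstressed H2A, H2B, H3 and HHO1 levels and an H4 level of 1853 RPKM, below only the x100 pair. With the x1/64 dose left out, 6 of 6 histone rows were still called under oxidative stress. HTZ1 over H2A was 0.0909 to 0.147 without stress, 0.277 to 0.469 in oxidative libraries, and 0.106 and 0.0727 in those of heat shock. HHO1 over H3, a linker histone against a core one, was 0.0675 to 0.0942 without stress and 0.186 to 0.329 with peroxide, and 0.0419 and 0.0351 at 42°C, so the 2 stresses lay on opposite sides of the unstressed range.

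Together the 4 core rows took 0.291% to 0.469% of all reads without stress (median 0.367%) and 0.102% to 0.148% under oxidative stress (median 0.128%). Heat shock gave 0.309% without drug and 0.229% at x1. The oxidative libraries lay below all others, and the drug-free heat shock library lay within the unstressed range.

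**Figure D3:**
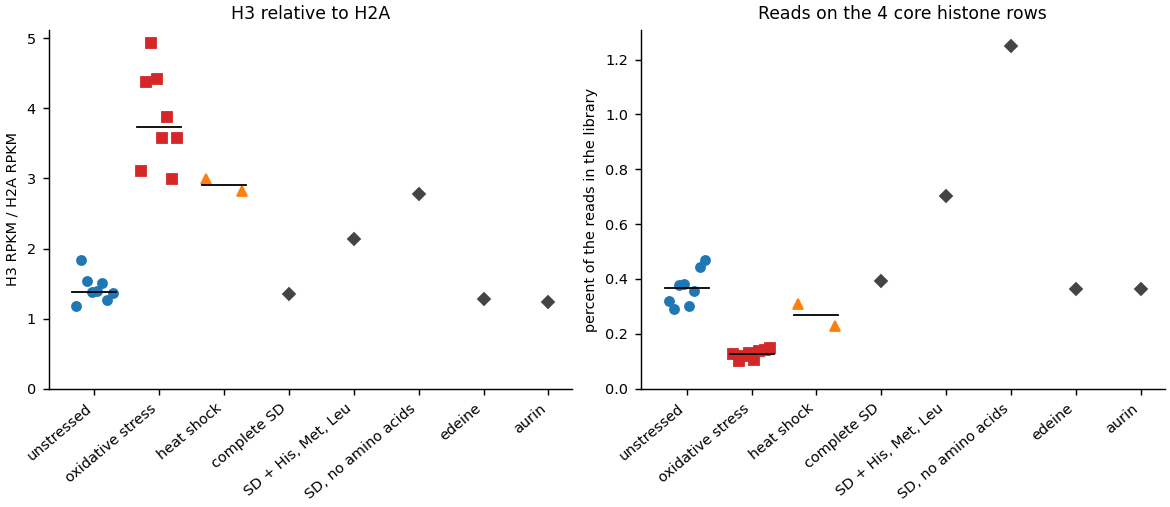
Ratio of H3 to H2A RPKM (left) and percent of all reads of a library that fell on the 4 core histone rows (right), 1 point per library, with the median of a stress as a line. H3 over H2A is 2.99 or more in 8 of 8 oxidative libraries and 1.83 or less in 8 of 8 unstressed ones, and the share of core reads is highest, at 1.25%, in SD without amino acids.

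Under amino acid starvation the 6 histone rows were higher than in complete SD, but so was the median row, and both scales are given below. H3 had the largest ratio: HHT1 and HHT2 were at 2114 RPKM in complete SD, 4917 RPKM with His, Met and Leu, and 9825 RPKM without amino acids, where the row was the 5th highest of 5564. The ratio to complete SD was 4.65 (95% counting interval 4.53 to 4.77) without amino acids and 2.33 (2.27 to 2.38) with the 3 amino acids. There was 1 library per condition, so no test was made, and the intervals cover counting error only. The library without amino acids was also the shallowest, at 1.92 M reads. The study states that a complete lack of amino acids the strain needs makes ribosomes stall at the codons for them. The part of stalling in these levels was not tested.

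H2B was at 1659, 2810.3 and 4756 RPKM in complete SD, with His, Met and Leu, and without amino acids. In the same order H2A was at 1561, 2302 and 3535 RPKM. H4 was at 1621, 2148 and 3429 RPKM. All 4 core rows had the same order of the 3 media, and H3 had the widest range.

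HHO1 was at 205, 456 and 638 RPKM in complete SD, with His, Met and Leu, and without amino acids, and HTZ1 at 173, 222 and 297 RPKM. Without amino acids 5 of 6 rows were past 2-fold higher than in complete SD and none past 2-fold lower, where 48.9% of rows were past 2-fold higher and 13.7% lower. With His, Met and Leu these counts were 2 of 6, H3 and HHO1, and none, where 29.3% of rows were past 2-fold higher and 11.7% lower.

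The median row itself was 0.91 higher on the log2 scale without amino acids and 0.49 higher with His, Met and Leu. Relative to it H3 was at +1.30 and +0.73, HHO1 at +0.72 and +0.66 and H2B at +0.61 and +0.27. H2A was at +0.27 and +0.07. H4 was at +0.17 and −0.08 and HTZ1 at −0.14 and −0.13, so HTZ1, and H4 with the 3 amino acids, changed direction with the scaling. H3 over H2A was 1.35 in complete SD, 2.14 with the 3 amino acids and 2.78 without amino acids. H3 over H4 was 1.30, 2.29 and 2.87 in the same order, and H4 over H2A was 1.04, 0.933 and 0.970. The move to new medium came with starvation and cannot be told apart from it. The library with His, Met and Leu was made with primer set 2 and the other 2 with set 1, and the part of the primers was not tested.

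**Figure D4:**
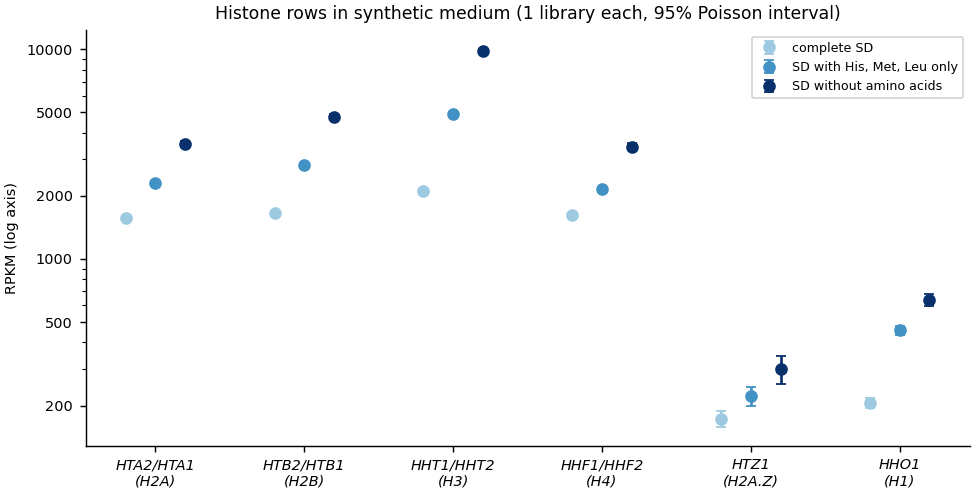
RPKM (log axis) of the 6 histone rows in complete SD, SD with His, Met and Leu, and SD without amino acids, 1 library each, with 95% Poisson intervals. The order of the 3 media is the same in the 6 rows, and H3 runs from 2114 to 9825 RPKM. The median row, not drawn, has the same order, at 32.3, 45.6 and 61.7 RPKM.

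With an initiation inhibitor in the lysate, 1 library each, most histone rows lay within the range of the unstressed libraries. With edeine the ratios to the drug-free unstressed library ran from 0.967 for H4 (95% counting interval 0.914 to 1.02) to 1.51 for HHO1 (1.34 to 1.69). With aurintricarboxylic acid they ran from 1.05 for H4 (1.02 to 1.09) to 1.37 for HTZ1 (1.21 to 1.54). No histone row was past 2-fold in either, where 0.951% and 1.58% of rows were past 2-fold higher and 0.652% and 1.79% lower. H4, H2A, H3 and H2B lay within the range of the unstressed libraries with both inhibitors. HTZ1 did so with edeine, and HHO1 with aurintricarboxylic acid. HHO1 with edeine, at 194 RPKM, and HTZ1 with aurintricarboxylic acid, at 177 RPKM, lay above the unstressed range.

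Cycloheximide at x1 did not change a histone row past the threshold. Over unstressed, oxidative and heat-shocked cells, each with and without x1, the differences ran from −0.19 ± 0.24 for H3 to −0.72 ± 0.24 for HTZ1 (SE, adjusted p of 0.103 to 0.683, limma). HTZ1 was the 1 row at an unadjusted p below 0.05 (0.008357). Its levels without drug and at x1 were 129 and 110.3 RPKM in unstressed, 137 and 66.1 RPKM in oxidative and 79.5 and 42.4 RPKM in heat-shocked cells, lower with drug in each. In the oxidative pair the primer set changed with the drug, from set 1 to set 2, and the effects cannot be told apart there. The unstressed pair and the heat shock pair each shared a set. Of 4105 rows tested 1.14% were called higher and 3.02% lower, and the median row was at −0.21.

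Over the 6 doses, with stress and primer set as terms, 3 rows rose with the dose. The drug-free libraries were not in this fit, so a rise from no drug is not shown. H2A was 1352 RPKM without drug and 847 RPKM at x1/64 in unstressed cells, and 318 and 194 RPKM under oxidative stress. A fit that left out x1/64 alone was not made. H2B gained 0.21 ± 0.04, H2A 0.20 ± 0.04 and HHO1 0.13 ± 0.03 on the log2 scale per 10-fold dose (SE, adjusted p = 0.002666, 0.004297 and 0.015, limma). H3, at 0.09 ± 0.04, H4, at 0.08 ± 0.07, and HTZ1, at 0.05 ± 0.05, were not called (SE, adjusted p of 0.096 to 0.474). Of 4371 rows 4.3% were called higher and 19.5% lower, and the median row was at −0.04. Relative to the median row H3 was called too, at 0.14 (adjusted p = 0.009078), where the share of all rows called is not given. Without the x100 libraries 0 of 6 rows were called by limma, but that fit has fewer libraries and a shorter range of doses. At x100 the drug came after filtration, and the part of this was not tested. H2A then gained 0.16, H2B 0.14 and HHO1 0.16 (adjusted p = 0.126, 0.154 and 0.087).

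Within primer set 1, fitted after seeing the data, the 4 core rows were at −0.07 (H3) to −0.04 (H4) per 10-fold dose, and 0 of 6 rows were called by limma. Set 1 spans x1/16 to x8 alone, since all x1/64 and x100 libraries have set 2, so the primers and the range of doses cannot be told apart here. Within set 2 H2B and H2A rose, at 0.24 and 0.23 (adjusted p = 0.024 and 0.027, limma). The trend did not differ between the 2 stresses past the threshold for any histone row, with adjusted p of 0.929 to 0.988. Over all rows 0% were called there, with 229 of 4371 at an unadjusted p below 0.05.

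Over the 8 drug-free libraries, the order of levels was read against 2 SD of the x100 replicates (pooled on the log2 scale, 2 pairs). A gap past it is called clear. The SD is that of a single library at x100, not of a difference, so the order is a description and not a test. For H2A SD without amino acids led, followed by SD with His, Met and Leu, each clear of the next. Complete SD, aurintricarboxylic acid, edeine and unstressed cells were 1561, 1465, 1461 and 1352 RPKM, each within 2 SD of its neighbour. Heat shock, at 748 RPKM, and oxidative stress, at 318 RPKM, followed with clear gaps. H2B also had the starved libraries first and heat shock and oxidative stress last. Its edeine, aurintricarboxylic acid and complete SD levels did not differ beyond 2 SD, and unstressed cells, at 1400.4 RPKM, lay more than 2 SD below them. All of these levels were within the range of the unstressed libraries over all doses, 1109.7 to 2172 RPKM. For H4 the 5 conditions from complete SD, at 1621 RPKM, down to edeine, at 1282 RPKM, did not differ from their neighbours beyond 2 SD, and heat shock was among them. For H3 heat shock was the third, at 2241 RPKM, within 2 SD of complete SD. Drug-free unstressed cells lay clear below heat shock and above oxidative stress. The heat shock level was still within the range of the unstressed libraries over all doses, 1553 to 2424 RPKM.

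HHO1 was highest in the 2 starved libraries and then under oxidative stress, at 324 RPKM. It was lowest under heat shock. HTZ1 was lowest under heat shock too, and its oxidative and unstressed levels, 137 and 129 RPKM, had a ratio of 1.06 with a 95% counting interval of 0.951 to 1.19.

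Across the 23 libraries, with each centred on its median row, H2A and H2B followed each other most closely, with a Pearson r of 0.994. The other 5 pairs of core rows ran from 0.926 to 0.95, with H3 and H4 at 0.928. HTZ1 correlated with the core rows at 0.762 to 0.904, and HHO1 at 0.026 to 0.252. These values are descriptions: the points share a strain, stresses and doses, and the spread was not split into parts between and within stresses.

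By the same measure the 8 single genes most like the mean of the core histones, out of 4299, were GPD2 (r = 0.964), YNL058C (0.943), AIM44 (0.934), GIC2 (0.933), ILV2 (0.932), ASH1 (0.928), PIR1 (0.918) and SER2 (0.914). GPD2 encodes a glycerol-3-phosphate dehydrogenase, ILV2 acetolactate synthase and SER2 phosphoserine phosphatase. ASH1 encodes a repressor of mating-type switching in daughter cells, GIC2 an effector of Cdc42, and PIR1 a cell wall protein. GPD2 was at 185 RPKM in drug-free unstressed cells, 102 RPKM under oxidative stress and 519 RPKM without amino acids. ILV2 was at 292, 59.5 and 778 RPKM.

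Genes that act on histones or with them were counted by list. The counts are read against all rows tested. Of these 63% were called higher and 22.8% lower under oxidative stress, and 26.7% higher and 43.2% lower under heat shock. For the counts relative to the median row, the share of all rows called is not given here. Of 11 tested regulators of histone transcription or level, 8 were called higher and none lower under oxidative stress, and relative to the median row 3 were higher and 3 lower. RAD53, the checkpoint kinase that also limits free histones, was 1.24 ± 0.13 higher and the chaperone ASF1 0.93 ± 0.11 higher (SE, adjusted p = 1.816e-06 and 3.815e-06, limma). Both stayed higher relative to the median row, at 0.71 and 0.40. Under heat shock none of the 11 was higher and 6 were lower, led by SWI6 at −0.97 and HIR2 at −0.94, and relative to the median row 1 was higher and 2 lower. The list median was 0.58 under oxidative stress, against 0.53 over all rows, and −0.40 under heat shock, against −0.28.

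Of 12 histone chaperones, 8 were higher and 2 lower under oxidative stress, but relative to the median row 1 was higher and 6 lower. POB3, a subunit of FACT, was at +0.83. CHZ1, a chaperone of H2A.Z, was at +0.52 but at −0.01 relative to the median row. HIF1, which binds H3 and H4 with the Hat1 complex, was at −0.64, and SPT6 at −0.42. Under heat shock HIF1 was at −2.69 and SPT6 at −1.53, CHZ1 was the 1 chaperone called higher, at +0.69, and 10 were lower, or 6 relative to the median row.

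Of 15 histone modifiers 6 were higher and 3 lower under oxidative stress, and relative to the median row 2 were higher and 11 lower. ESA1, an acetyltransferase of H4, was at +0.82 and HAT2 at +0.80. UBP10, a deubiquitinase of H2B, was at −1.09 and the deacetylase HST3 at −0.72. Under heat shock 1 of 14 was higher, RAD6, which ubiquitinates H2B, at +1.06. There 7 were lower, with UBP10 at −1.93 and SIR2 at −1.21, and relative to the median row 4 were higher and 4 lower.

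Among 9 tested genes of H2A.Z exchange 6 were higher and 1 lower under oxidative stress (3 and 3 relative to the median row). SWC5 was at +1.46 and VPS71 at +1.11, both of the SWR1 complex, and the helicase RVB1 at −0.47. Under heat shock RVB1 was at −1.72, RVB2 at −1.11 and VPS71 at +0.60, with 1 of 8 called higher and 2 lower (5 and 2 relative to the median row). Of 24 DNA replication genes 9 were higher and 6 lower under oxidative stress (5 and 16 relative to the median row). RFA1 and RFA2 of the single-strand binding protein RPA were at +1.71 and +1.68, and MCM7 was at −0.84 and POL1 at −0.44. Under heat shock 18 of 23 were lower and none higher (15 and 2 relative to the median row), led by RNR1, the large subunit of ribonucleotide reductase, at −3.39, and POL1 at −2.28.

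At x100 the counts of higher and lower calls under oxidative stress were 5 and 0 of 9 regulators, 6 and 0 of 12 chaperones, 4 and 2 of 14 modifiers, 6 and 1 of 8 exchange genes and 10 and 1 of 23 replication genes, where 55.3% of all rows were called higher and 19.7% lower. Relative to the median row they were 2 and 2, 1 and 4, 0 and 7, 2 and 2, and 2 and 8. From oxidative stress to heat shock they were 0 and 11 of 11, 0 and 10 of 12, 1 and 9 of 14, 0 and 6 of 8 and 0 and 21 of 23, where 74.1% of all rows were called lower and 5% higher. Relative to the median row they were 1 and 2, 1 and 2, 5 and 1, 1 and 1, and 1 and 11, so the modifiers changed direction with the scaling.

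At x1 drug RAD27, a flap endonuclease, was the 1 gene of the lists called, at −0.91, and relative to the median row none was called. With rising dose none was higher and 4 regulators, 2 chaperones, 4 modifiers, 3 exchange genes and 2 replication genes were lower, where 19.5% of all rows were called lower and 4.3% higher. Relative to the median row the higher and lower calls with dose were 0 and 2, 1 and 1, 1 and 3, 2 and 3, and 3 and 1. CSE4, the centromeric H3 variant, ranged from 15 to 125 RPKM over the 23 libraries, and was at +0.30 ± 0.15 under oxidative stress and −0.46 ± 0.27 under heat shock (SE, adjusted p = 0.075 and 0.133, limma).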

How the data were processed

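Ribosome footprints were sequenced in single libraries, and 23 of 24 samples had a column in the table used here. The sample of small ribosomal subunits was not analysed here. Per the study's methods, the authors aligned reads with Bowtie 0.12.7 to the S288C genome and deposited 1 RPKM value per gene and library. How reads that fit both copies of a gene were counted is not given in the sources used here. In joined rows, 100% of 197 low values were whole reads over the summed length of both copies (44.71% of 208 over 1 copy). Values stepped in whole reads (95.35% to 99.2% within 0.1 of a whole number) over a length shortened by 99 to 100 nt, which gave the depths, and reads without molecular identifiers make intervals cover counting error only.

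Gene names came from RefSeq R64 (5446 of 5448 single-gene rows matched). Differences were tested with limma 3.58.1 in R 4.3.3 on log2(RPKM + 1), rows with a mean of at least 10 RPKM, threshold 0.05 after Benjamini-Hochberg adjustment, and fits were tested on simulated data. Conditions outside x100 had 1 library, so p-values rest on repetition over doses or stresses. Intervals are 95% and exact (Clopper-Pearson for ratios, Poisson for levels). Members and gene lists were chosen with earlier results of these data known. All histone rows, CSE4, up to 2 genes per list and direction with the largest called change under oxidative stress and heat shock, and the 8 genes of highest correlation are named. H2A stands for the row of HTA1 and HTA2, and H2B, H3 and H4 likewise. Alternatives were the pseudocount, filter, centring, prior, primer set, replicate block, and leaving out libraries.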

Additional observations from a re-analysis of the deposited data

How the results depend on the processing

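Of the values of single histone rows under the alternatives, 136 of 138 kept direction and call for oxidative stress, 64 of 66 at x100, 69 of 72 for heat shock, 40 of 42 between the stresses, 60 of 60 for x1 drug, 71 of 90 for the dose trend and 67 of 72 for its difference between stresses. The causes of the changes below were not tested unless fewer rows or libraries entered. A filter at a mean of 30 RPKM tested fewer rows and called 2334 of them in place of 3735 under oxidative stress, 1923 in place of 3073 at x100, 1916 in place of 3017 under heat shock, 2106 in place of 3416 between the stresses and 419 in place of 1040 with the dose. The fit of 4 matched libraries called 1903 under heat shock. Centring gave 2034 calls between the stresses and put HTZ1 there at 0.25. For x1 drug the 171 calls became 19 and 71 with pseudocounts of 0.1 and 10, 30 with no filter, 2 with centring, 78 with the primer set as a term, and 0, 75 and 87 without the unstressed, oxidative or heat shock libraries.

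For the dose trend, 0 histone rows were called without x100, without x8 and x100, or within primer set 1 (a fit chosen after seeing the data), and over all rows 0 were called without x8 and x100, 0 within set 1 and 359 within set 2. Without x100 HTZ1 turned to −0.065 and H4 to −0.060. Without x8 and x100 HTZ1 turned to −0.24, H4 to −0.33 and H3 to −0.056. Within set 1 HTZ1 turned to −0.11, H2B to −0.043, H2A to −0.050, H4 to −0.038 and H3 to −0.070. The difference of trends, called for 0 rows, turned for HTZ1 to 0.0012 with centring and 0.11 without x100, and for H3 to 0.17 without x100. Leaving out 1 x100 library at a time, it ran from −0.0098 to 0.032 for H2A and from −0.042 to 0.0013 for H3. Centring moved the median log2 difference of the core rows from 1.35 to 0.44 without amino acids, from 0.66 to 0.17 with His, Met and Leu, from 0.18 to 0.10 with edeine and from 0.15 to 0.031 with aurintricarboxylic acid.

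Leaving out 1 x100 library gave 3677 to 3703 calls under oxidative stress, 2546 to 3009 at x100 (5 to 6 histone rows), 2970 to 2997 under heat shock and 902 to 994 with the dose; an arm left with 1 library was assumed to vary like the other. With the replicate number as a block, 3719 rows were called under oxidative stress and 3196 at x100, 6 histone rows in each. The differences between replicates 1 and 2 of the stresses at x100 correlated at r = 0.436 across 4101 rows, which are not independent, and with 2 pairs the libraries share only a number. The shallowest histone value, HTZ1 under heat shock at x1, rests on 38 reads.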
